A study of Mus musculus with 6 samples.

Results

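The 9 genes described here encode 6 claudins (Cldn1, Cldn3, Cldn4, Cldn7, Cldn8 and Cldn12), occludin (Ocln) and the junction scaffolds ZO-1 (Tjp1) and ZO-3 (Tjp3). They were taken as a list of names, not by any measured value, and were found as 9 of the 54418 gene identifiers in the deposited counts. The counts come from mammary epithelial cells of 3 Glis2+/+ and 3 Glis2-/- female mice of the C57BL/6 strain at 4 weeks of age, sorted by FACS and sequenced as total RNA. The Glis2-/- animals carried a germline knockout of Glis2, which encodes a GLI-similar zinc finger repressor, an allele that is not restricted to the epithelium. No other allele or agent is given for either genotype. Cells were stained for CD24 and CD49f and for the blood and vessel antigens TER-119, CD45 and CD31, and the gate that was kept is not given in the sources used here. Each genotype has as many libraries as mice, and the p-values below measure the spread between them.

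Tight junctions seal the space between neighboring epithelial cells near their apical side. Claudins and occludin span the membrane and meet their partners on the next cell, with individual claudins setting which ions and small solutes can pass. ZO proteins bind the claudin tails through PDZ domains and tie the strands to actin. In the mammary gland, tight junctions join luminal cells around the lumen and close firmly when milk is made, whereas basal myoepithelial cells carry few of them. Low Cldn3, Cldn4 and Cldn7 define the claudin-low class of breast tumors, and repressors of the EMT program such as Snail, Slug and Zeb1 are known to bind E-boxes in the promoters of claudin and occludin genes.

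The promoter windows of the genes are shown first. In them, 5 genes that were low in the same 2 libraries, as described further on, held the same short motif. That grouping was made after the values were seen, and the part of the motif in it was not tested. RefSeq windows from 250 bases before to 50 bases after a transcription start, on the GRCm38.p6 build, were matched for 8 of the 9 genes and came to 13 windows. Cldn8 had no entry. The E-box CAGGTG, read on either strand so that CACCTG is the same motif, was present in 7 of the 13 windows, which belong to 5 genes, Cldn3, Cldn4, Cldn7, Ocln and Tjp3. Among all promoters of this length it was present in 20.2% of 32851 windows and in at least 1 window of 22.6% of 27025 genes. No window of Cldn1, Cldn12 or Tjp1 held it. The grainyhead motif AACCGGTT, read on either strand, was in none of the 13 windows and in 0.146% of all windows. A match describes these letters only and does not show that a factor binds there, and its absence says nothing about sites outside the window.

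A window is given for each of the 5 genes with an E-box, and for Cldn12 as the gene without one whose libraries separated by genotype. The coordinates are chr5:134985964-134986263 on the plus strand for Cldn3, chr5:134946885-134947184 on the minus strand for Cldn4, chr11:69965171-69965470 on the plus strand for Cldn7, chr13:100552449-100552748 on the minus strand for Ocln, chr10:81291218-81291517 on the minus strand for Tjp3 and chr5:5514927-5515226 on the minus strand for Cldn12. Sequences run 5′ to 3′ in the direction of transcription, with E-boxes in capitals.
Cldn3: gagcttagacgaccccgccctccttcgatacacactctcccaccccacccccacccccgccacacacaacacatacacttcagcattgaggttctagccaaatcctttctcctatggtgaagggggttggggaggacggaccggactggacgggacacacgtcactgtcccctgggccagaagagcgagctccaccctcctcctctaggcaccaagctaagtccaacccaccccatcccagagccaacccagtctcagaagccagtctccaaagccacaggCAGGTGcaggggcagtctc
Cldn4: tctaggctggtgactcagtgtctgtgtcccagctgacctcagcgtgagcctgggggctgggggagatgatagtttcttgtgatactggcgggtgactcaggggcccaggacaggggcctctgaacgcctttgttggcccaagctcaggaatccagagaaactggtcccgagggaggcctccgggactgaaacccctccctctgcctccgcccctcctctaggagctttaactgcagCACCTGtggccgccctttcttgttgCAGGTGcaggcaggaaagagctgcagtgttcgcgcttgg
Cldn7: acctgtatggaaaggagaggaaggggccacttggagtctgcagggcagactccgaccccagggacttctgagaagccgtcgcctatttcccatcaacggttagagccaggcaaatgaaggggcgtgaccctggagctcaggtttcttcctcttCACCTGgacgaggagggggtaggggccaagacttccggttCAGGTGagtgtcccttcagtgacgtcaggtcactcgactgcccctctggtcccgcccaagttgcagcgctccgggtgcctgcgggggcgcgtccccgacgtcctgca
Ocln: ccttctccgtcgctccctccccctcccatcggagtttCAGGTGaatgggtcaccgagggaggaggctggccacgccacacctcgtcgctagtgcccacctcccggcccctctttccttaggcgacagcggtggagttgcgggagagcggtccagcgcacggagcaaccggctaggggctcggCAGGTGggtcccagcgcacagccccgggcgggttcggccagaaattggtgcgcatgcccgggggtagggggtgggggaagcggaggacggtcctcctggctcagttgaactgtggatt
Tjp3: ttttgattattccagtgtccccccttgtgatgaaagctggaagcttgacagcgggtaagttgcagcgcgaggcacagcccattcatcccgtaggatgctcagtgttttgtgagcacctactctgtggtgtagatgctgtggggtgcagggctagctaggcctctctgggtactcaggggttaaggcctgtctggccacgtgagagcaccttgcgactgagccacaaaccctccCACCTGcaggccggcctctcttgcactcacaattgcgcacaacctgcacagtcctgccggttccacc
Cldn12: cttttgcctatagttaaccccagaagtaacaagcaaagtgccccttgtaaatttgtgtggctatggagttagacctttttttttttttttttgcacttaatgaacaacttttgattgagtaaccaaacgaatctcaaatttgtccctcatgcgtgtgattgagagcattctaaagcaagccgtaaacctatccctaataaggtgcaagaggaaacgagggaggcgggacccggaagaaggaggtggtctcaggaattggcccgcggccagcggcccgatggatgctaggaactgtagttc

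Given as the distance in bases from the transcription start to the first base of the motif, with the start itself at 0, the E-boxes of Cldn4 began at -14 and 11, one on each side of the start, and that of Cldn3 began at 31. Those of Cldn7 began at -97 and -57 of its downstream window, and its upstream window held none. The window of Tjp3 shown has its E-box at -17, and a window farther upstream holds another at -108. Ocln had E-boxes at -213 and -68, and its second window, which overlaps the one shown, holds the first of these at a distance of 7 from its own start.

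The libraries held between 24996524 and 31393917 estimated counts. Counts were scaled to library size by TMM and are written here as CPM. The genotypes were compared with the quasi-likelihood test of edgeR, fitted to the 21236 genes left by a filter on low counts. All p-values of that test are two-sided, and adjusted p-values are Benjamini-Hochberg values over those genes. Glis2 itself stood at 21.7, 23.2 and 19.6 CPM in Glis2+/+ replicates 1 to 3 and at 10.1, 17 and 16.3 CPM in Glis2-/- replicates 1 to 3, so that the transcript was present in each Glis2-/- library and the genotype rests on the labels. The part of the gene that the knockout removes is not given in the sources used here. The log2 fold change of Glis2 was -0.57, with a standard error of 0.22 and an adjusted p of 0.906 in edgeR.

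The sort was checked against marker lists. Epithelial markers (Epcam, Cdh1, Cd24a and Itga6) summed to between 1759 and 2390 CPM, and luminal and basal markers were both abundant, which shows that the libraries mix the 2 layers. The 15 luminal markers summed to 4219, 6899 and 6041 CPM in Glis2+/+ replicates 1 to 3 and to 6289, 7350 and 4218 CPM in Glis2-/- replicates 1 to 3. Glis2+/+ replicate 1 and Glis2-/- replicate 3 were thus the 2 libraries with the least luminal RNA, 1 in each genotype. The 13 basal markers summed to between 4901 and 6272 CPM in Glis2+/+ and between 6602 and 7998 CPM in Glis2-/- libraries, without overlap. All 13 were higher in Glis2-/- cells by sign, with a median log2 fold change of 0.36, and 6 had an unadjusted p under 0.05. Markers of cells that the sort stains to remove were present. The 7 endothelial markers summed to 695.8, 132.7 and 500.2 CPM in Glis2+/+ and to 440.2, 198.2 and 710.3 CPM in Glis2-/- libraries, with the genotypes overlapping. Their sum was highest in Glis2+/+ replicate 1 and Glis2-/- replicate 3, the libraries with the least luminal RNA. The 7 haematopoietic markers summed to between 15.16 and 29.75 CPM in Glis2+/+ and between 31.52 and 72.47 CPM in Glis2-/- libraries, without overlap, with all 7 higher by sign, a median log2 fold change of 1.17 and 3 at an unadjusted p under 0.05. Fibroblast markers (6 genes) summed to between 2293 and 7727 CPM, with 5 of the 6 lower in Glis2-/- cells by sign and a median log2 fold change of -0.39. Adipocyte markers (4 genes) summed to between 4.835 and 19.61 CPM, of which 3 were lower in Glis2-/- cells by sign, 1 of them (Plin1) at an unadjusted p of 0.0166. Beside these counts, 48.4% of all genes were lower in Glis2-/- cells by sign and 5.32% had an unadjusted p under 0.05 in edgeR. No marker on any list was at 0 in all libraries. The part of the endothelial, haematopoietic, fibroblast and adipocyte RNA in the differences below was not tested. In these bulk samples, fewer cells of a type and less RNA per cell cannot be told apart.

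Both thresholds, 0.05 for the adjusted p and 0.58 for the absolute log2 fold change, were passed by none of the 9 genes, and neither were they passed by any of the 21236 genes tested (0%), for which the smallest adjusted p was 0.392. All 9 passed the filter on low counts. By sign, 4 were higher and 5 lower in Glis2-/- cells, with a median log2 fold change of -0.06, beside 48.4% lower and a median of 0.011 over all genes. At an unadjusted p under 0.05 stood 1 of the 9, Cldn12, beside 5.32% of all genes (1130). Cldn12 was also the 1 gene of the 9 whose genotypes did not overlap, beside 11.7% of all genes.

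**Figure D1:**
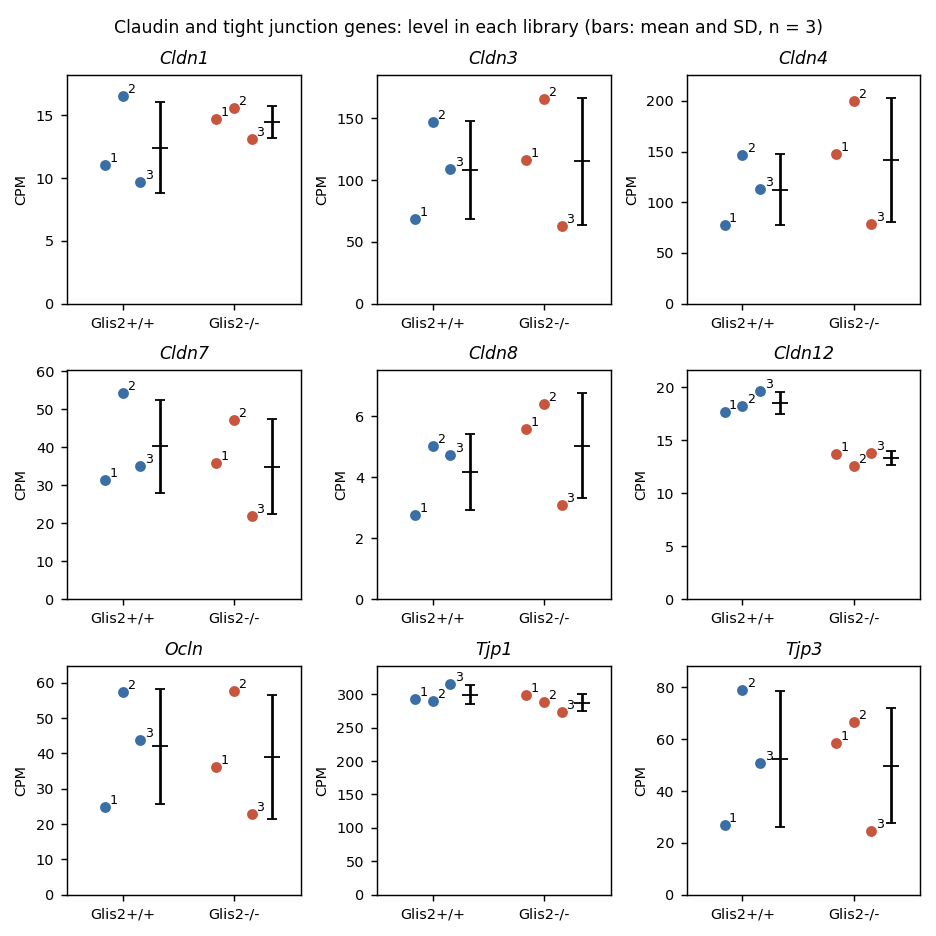
Level of each of the 9 genes in CPM (linear axis from 0) in Glis2+/+ (blue) and Glis2-/- (red) libraries, with replicate numbers beside the points and the mean and SD (n = 3) as bars. Points of the genotypes overlap in every panel but that of Cldn12, and in 6 panels Glis2+/+ replicate 1 and Glis2-/- replicate 3 are the 2 lowest points.

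Cldn3 and Cldn4, barrier claudins whose genes lie close to each other on chromosome 5 (GRCm38 134986214 to 134987472, plus strand, and 134945119 to 134946934, minus strand), were the most abundant claudins. Cldn3 (ENSMUSG00000070473) stood at 68.22, 147.4 and 109.3 CPM in Glis2+/+ replicates 1 to 3 and at 116.7, 165.9 and 63.27 CPM in Glis2-/- replicates 1 to 3. The highest and the lowest library were both Glis2-/-, and the Glis2+/+ libraries lay between them. Its means were 108.3 ± 39.6 and 115.3 ± 51.3 CPM (SD, n = 3 each), a log2 fold change of 0.09 (standard error 0.36, 95% interval -0.73 to 0.91, adjusted p = 0.990 from edgeR's quasi-likelihood test). Cldn4 (ENSMUSG00000047501) stood at 77.26, 146.8 and 113.4 CPM in Glis2+/+ and at 147.4, 199.9 and 78.22 CPM in Glis2-/- libraries. Glis2-/- replicates 1 and 2 lay above all Glis2+/+ libraries, and Glis2-/- replicate 3 lay with the lowest of them. Its means were 112.5 ± 34.8 and 141.8 ± 61.0 CPM (SD, n = 3 each), a log2 fold change of 0.33 (standard error 0.33, 95% interval -0.43 to 1.10, adjusted p = 0.947 from edgeR's quasi-likelihood test).

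Cldn7, Cldn8 and Cldn1 stood at lower levels than Cldn3 and Cldn4. Cldn7 (ENSMUSG00000018569, chromosome 11, 69964779 to 69967885), the third of the claudins that define claudin-low tumors, stood at 31.44, 54.22 and 35.08 CPM in Glis2+/+ and at 35.77, 47.04 and 21.89 CPM in Glis2-/- libraries. Its lowest library was Glis2-/- replicate 3, and the other Glis2-/- libraries lay inside the Glis2+/+ range. Its log2 fold change was -0.21 (standard error 0.30, 95% interval -0.88 to 0.47, adjusted p = 0.973 from edgeR's quasi-likelihood test). Cldn8 (ENSMUSG00000050520, chromosome 16, 88560828 to 88563183), a claudin that limits the passage of cations in the kidney tubule, was the scarcest of the 9 genes with 85 to 192 counts per library. It stood at 2.755, 5.04 and 4.72 CPM in Glis2+/+ and at 5.595, 6.41 and 3.10 CPM in Glis2-/- libraries, a log2 fold change of 0.27 (standard error 0.38, 95% interval -0.60 to 1.14). Cldn1 (ENSMUSG00000022512, chromosome 16, 26356642 to 26371841), whose protein seals the epidermal barrier, stood at 11.08, 16.52 and 9.671 CPM in Glis2+/+ and at 14.71, 15.62 and 13.13 CPM in Glis2-/- libraries. Its Glis2-/- libraries all lay between the highest and the second Glis2+/+ library, and its log2 fold change was 0.22 (standard error 0.24, 95% interval -0.32 to 0.76).

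Cldn12 (ENSMUSG00000046798, chromosome 5, 5489537 to 5514958), an atypical claudin whose tail lacks the PDZ-binding end of the others, stood at 17.70, 18.20 and 19.65 CPM in Glis2+/+ and at 13.67, 12.52 and 13.77 CPM in Glis2-/- libraries. All 3 Glis2-/- libraries lay below all 3 Glis2+/+ libraries, and the spread within a genotype was small, with means of 18.51 ± 1.01 and 13.32 ± 0.695 CPM (SD, n = 3 each). Its log2 fold change was -0.47 (standard error 0.16, 95% interval -0.84 to -0.11), with an unadjusted p of 0.0168 and an adjusted p of 0.906 in edgeR's quasi-likelihood test, so that it did not pass the test over all genes. Counted per length instead, as TPM rescaled so that protein-coding genes alone make up the total, Cldn12 stood at 31.86, 21.62 and 12.26 in Glis2+/+ and at 14.64, 20.78 and 17.43 in Glis2-/- libraries, which overlap. The scales differ by the length that the quantification assigned to the gene, which varied between libraries. Relative to Cldn3 it was 1.159, 1.653 and 3.253 in Glis2+/+ and 1.883, 1.169 and 1.607 in Glis2-/- libraries, whereas that of Cldn4 lay between 1.521 and 1.525. This length also varied for Tjp1 (2.96 to 4.276), Tjp3 (1.619 to 2.31), Ocln (1.8 to 2.341) and Cldn7 (0.797 to 1.03), and was steady for Cldn1 and Cldn8. With rescaled TPM in limma the log2 fold change of Cldn12 was -0.22 with an unadjusted p of 0.549.

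Ocln (ENSMUSG00000021638, chromosome 13, 100496507 to 100552718), which encodes a 4-pass protein of the strands, stood at 24.89, 57.23 and 43.71 CPM in Glis2+/+ and at 36.17, 57.72 and 22.91 CPM in Glis2-/- libraries. Its highest libraries, replicate 2 of each genotype, differed by less than 1 CPM, and its log2 fold change was -0.11 (standard error 0.37, 95% interval -0.95 to 0.73). Tjp3 (ENSMUSG00000034917, chromosome 10, 81273207 to 81291581) stood at 26.87, 79.10 and 50.85 CPM in Glis2+/+ and at 58.55, 66.50 and 24.44 CPM in Glis2-/- libraries, a log2 fold change of -0.07 (standard error 0.43, 95% interval -1.06 to 0.92). It varied most of the 9 genes, 3.24-fold from the lowest to the highest library. Apba3 overlaps Tjp3 on the other strand with up to 732 counts per library, and how the counting used strand is not given in the sources used here.

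Tjp1 (ENSMUSG00000030516, chromosome 7, 65296165 to 65527781) encodes a protein that also sits at adherens junctions and is made in many cell types. It was the steadiest of the 9 genes in CPM. It stood at 293.0, 289.7 and 315.2 CPM in Glis2+/+ and at 298.7, 288.4 and 273.9 CPM in Glis2-/- libraries. The range was 1.15-fold from lowest to highest, beside a median of 2.02-fold over all genes. In rescaled TPM, Tjp1 ran more widely, from 130.3 in Glis2-/- replicate 3 to 190.4 in Glis2+/+ replicate 3. Its means were 299.3 ± 13.9 and 287.0 ± 12.5 CPM (SD, n = 3 each), and its log2 fold change of -0.06 (standard error 0.09) had the narrowest 95% interval of the 9 genes, -0.26 to 0.14. Gm44792 overlaps it on its own strand with up to 402 counts per library.

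Ordered by level per length, over the mean of the 6 libraries in rescaled TPM, Cldn3 (223.3) came first, followed by Tjp1 (166.78), Cldn4 (166.77), Cldn7 (81.82), Tjp3 (55.62), Ocln (38.81), Cldn12 (19.76), Cldn1 (9.34) and Cldn8 (4.54). The first 3 places were not settled by the libraries, since Cldn3 exceeded Tjp1 in 4 of 6 and Tjp1 exceeded Cldn4 in 3 of 6. Cldn4, Cldn7, Tjp3, Cldn12 and Cldn1 each exceeded the next gene in 6 of 6 libraries, and Ocln exceeded Cldn12 in 5 of 6.

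Libraries of the same genotype differed from each other in a way that 6 of the 9 genes shared. In Cldn3, Cldn4, Cldn7, Cldn8, Ocln and Tjp3, Glis2+/+ replicate 1 and Glis2-/- replicate 3 were the 2 lowest libraries (66.7% of the 9 genes), as was so for 10.6% of all genes. In CPM, these 6 genes ranged from 2.33-fold (Cldn8) to 3.24-fold (Tjp3) between libraries, and Cldn1, Cldn12 and Tjp1 from 1.15-fold to 1.71-fold. The same 2 libraries were the lowest for 14 of the 15 luminal markers, for 3 of the 4 epithelial markers and for none of the 13 basal markers. They also had the highest endothelial sums (695.8 and 710.3 CPM) and the highest haematopoietic sum of their genotype (29.75 and 72.47 CPM). The fibroblast sum was highest in Glis2+/+ replicate 3 (7727 CPM). The part of these cell types in the shared pattern was not tested. The mean log2 CPM of the luminal markers minus that of the basal markers was -1.121, -0.106 and -0.095 in Glis2+/+ and -0.702, -0.194 and -1.567 in Glis2-/- libraries. The 5 genes with an E-box in a promoter window are all among those 6, and the sixth, Cldn8, had no window. This grouping was made after the values were seen, and the part of the E-box in it was not tested. How many of all genes low in the same 2 libraries hold an E-box was not counted.

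**Figure D2:**
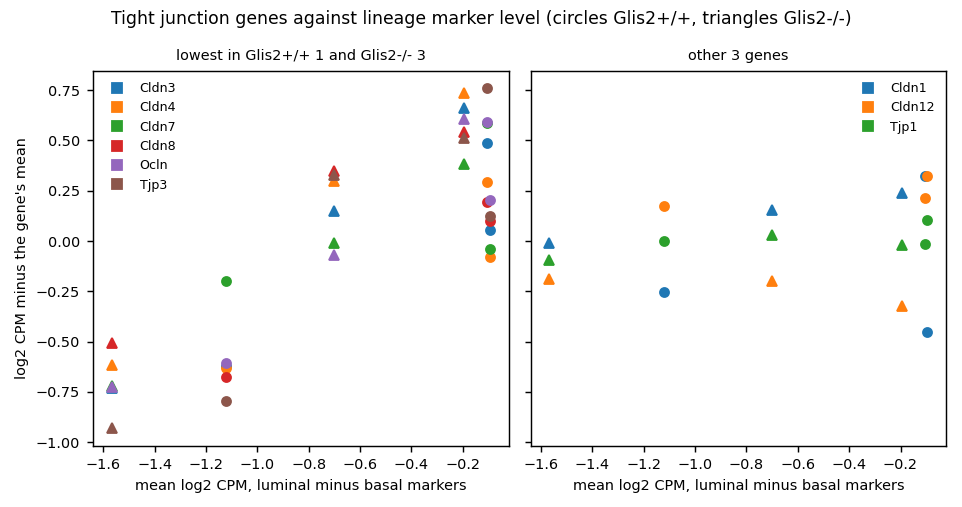
Log2 CPM of each of the 9 genes minus its own mean over the 6 libraries (vertical axis) against the mean log2 CPM of luminal minus basal markers (horizontal axis), with circles for Glis2+/+ and triangles for Glis2-/- libraries. The 6 genes on the left are lowest in the 2 libraries at -1.567 and -1.121, and Cldn1, Cldn12 and Tjp1 on the right span a smaller range.

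Since the luminal to basal level differed between libraries, the genotype was also fitted with that level as a covariate. In this fit Cldn4 was higher in Glis2-/- cells by 0.61 on the log2 scale (standard error 0.13), with an unadjusted p of 0.00102 and an adjusted p of 0.398 in edgeR's quasi-likelihood test, and Cldn3 by 0.41 (standard error 0.13, unadjusted p of 0.0116, adjusted p = 0.519 in the same edgeR test). The standard error of Cldn4 was 0.33 without the covariate. Cldn12 was hardly moved at -0.48 (standard error 0.18, unadjusted p of 0.0265). Tjp3 and Ocln turned from lower to higher, at 0.36 and 0.24 with unadjusted p-values of 0.0961 and 0.143, and Cldn7 came to 0.00. At an unadjusted p under 0.05 stood 3 of the 9 genes, beside 8.2% of all genes (1741) in this fit. None of the 9 genes and none of all genes passed both thresholds in it. The basal part of the covariate itself differed by genotype without overlap, so that the covariate and the genotype are not independent. That part was 8.068, 7.929 and 7.752 log2 CPM in Glis2+/+ and 8.291, 8.138 and 8.47 in Glis2-/- libraries, whereas the luminal part overlapped. The basal difference lowers the covariate in Glis2-/- libraries, and the fit thereby moves genes that rise with the covariate upward. With Glis2+/+ replicate 1 and Glis2-/- replicate 3 left out, a choice made after seeing the data, none of the 9 passed either, Cldn4 came to 0.39 (unadjusted p of 0.0817) and Cldn12 to -0.56 (unadjusted p of 0.0400).

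**Figure D3:**
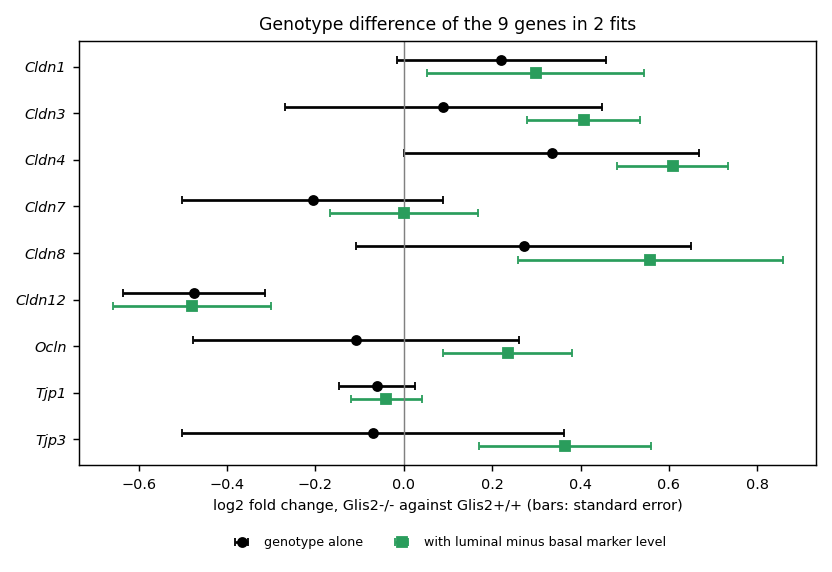
Log2 fold change of Glis2-/- against Glis2+/+ cells for each of the 9 genes with its standard error as a bar, from genotype alone (black circles) and with the luminal minus basal marker level as a covariate (green squares). Cldn4 moves from 0.33 to 0.61 with a shorter bar, and Cldn12 stays near -0.48 in both fits. The covariate is not independent of the genotype.

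Together with 10 of the 11 other claudin genes that passed the filter, the 6 claudins made up a pool of 16. Cldnd1, a claudin domain gene at 42.07 to 85.7 rescaled TPM, was left out. The summed level of the pool was 493.2, 696 and 586.4 rescaled TPM in Glis2+/+ and 623.7, 809.3 and 396.4 in Glis2-/- libraries. The pool was smallest in the 2 libraries with the least luminal RNA. Cldn3 took 36.1% ± 6.53 of it in Glis2+/+ and 36.7% ± 3.79 in Glis2-/- libraries (SD, n = 3 each). Cldn4 took 24.8% ± 2.95 and 29.7% ± 2.91, with 26.4% in its lowest Glis2-/- library and 27.1% in its highest Glis2+/+ library, so that the genotypes overlapped. Cldn7 took 14.7% ± 2.0 and 12.4% ± 1.52. Cldn12, Cldn1 and Cldn8 each took less, with means of 3.89%, 1.46% and 0.693% in Glis2+/+ and 3.10%, 1.76% and 0.811% in Glis2-/- libraries. Without Glis2+/+ replicate 1 the difference in mean share, Glis2-/- minus Glis2+/+, turned from 0.568 to -3.04 percentage points for Cldn3 and from -0.781 to 0.506 for Cldn12, and with only the 6 claudins as the pool that of Cldn3 was -0.674. Without Glis2-/- replicate 2 the difference for Cldn3 was -0.995. Shares of a pool are bound to one another and were not tested.

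**Figure D4:**
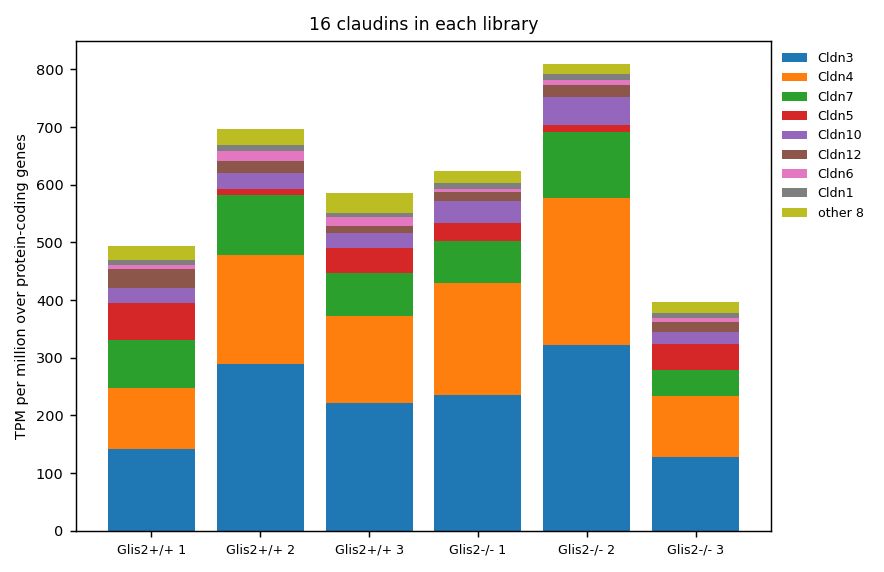
Level of 16 claudins in each library, stacked, in TPM rescaled so that protein-coding genes make up the total (linear axis from 0). Cldn3, Cldn4 and Cldn7 fill most of every bar, and the bars of Glis2+/+ replicate 1 (493.2) and Glis2-/- replicate 3 (396.4) are the lowest.

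Among the other claudins, Cldn10, which forms ion-selective pores, took 5.21%, 3.91% and 4.51% of the pool in Glis2+/+ and 6.19%, 5.97% and 5.44% in Glis2-/- libraries, without overlap. In CPM it stood at 22.17, 25.03 and 23.49 in Glis2+/+ and at 34.53, 44.7 and 19.11 in Glis2-/- libraries, which do overlap, with a log2 fold change of 0.48 (standard error 0.27, unadjusted p of 0.118). Cldn6, a claudin of embryonic epithelia, took 1.71%, 2.39% and 2.6% of the pool in Glis2+/+ and 0.979%, 0.982% and 1.49% in Glis2-/- libraries. It stood at 4.472, 9.73 and 8.098 CPM in Glis2+/+ and at 3.517, 4.474 and 3.259 CPM in Glis2-/- libraries, which touch at the lowest Glis2+/+ library, and its log2 fold change was -0.99 (standard error 0.34, unadjusted p of 0.0194, adjusted p = 0.906 from edgeR's quasi-likelihood test). Cldn19, known from the kidney tubule and from Schwann cells, stood at 5.607, 2.485 and 4.298 CPM in Glis2+/+ and at 0.719, 1.703 and 2.748 CPM in Glis2-/- libraries, a log2 fold change of -1.25 (standard error 0.54, unadjusted p of 0.0462, adjusted p = 0.906 from the same edgeR test).

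Cldn5, the claudin of blood vessel endothelium, stood at 36.01, 6.72 and 24.45 CPM in Glis2+/+ and at 17.98, 7.612 and 25.05 CPM in Glis2-/- libraries. It was lowest in replicate 2 of each genotype, where the endothelial markers summed to 132.7 and 198.2 CPM, beside 440.2 to 710.3 CPM in the other libraries. Its log2 fold change was -0.41 (standard error 0.58). The remaining claudins that passed were scarce, at no more than 6.601 CPM in any library except for the claudin domain gene Cldnd1 (23.7 to 30.89 CPM). Their log2 fold changes were -0.48 for Cldn2, -1.55 for Cldn11, 0.02 for Cldn15, -2.10 for Cldn20, -0.65 for Cldn23, -0.17 for Cldn34c1 and -0.05 for Cldnd1, and the smallest of their unadjusted p-values was that of Cldn11 (0.128). Cldn20 rested on 6, 32 and 11 counts in Glis2+/+ and 0, 1 and 11 counts in Glis2-/- libraries. The other 16 claudins found in the files lay under the filter.

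Over the whole list of 65 other tight junction genes found in the files, 49 passed the filter, of which 20 were higher and 29 lower in Glis2-/- cells with a median log2 fold change of -0.06. None passed both thresholds. At an unadjusted p under 0.05 stood 4 (8.16%), of which 1 was higher and 3 lower, and 6 did not overlap between genotypes (12.2%), beside the 5.32% and 11.7% of all genes. By role, 2 of 11 claudins were higher and 9 lower, 6 of 15 scaffolds higher and 9 lower, 1 of 5 occludin-like and tricellular genes higher and 4 lower, 5 of 6 genes of the JAM family higher and 1 lower, and 6 of 12 polarity genes higher and 6 lower. The 4 genes were Cldn6, Cldn19, Amotl1 and Ybx3. Amotl1, an angiomotin that binds junctions and YAP, stood at 271.9, 248.7 and 216.9 CPM in Glis2+/+ and at 285.9, 305.7 and 307.1 CPM in Glis2-/- libraries, without overlap, a log2 fold change of 0.29 (standard error 0.11, unadjusted p of 0.0252). Ybx3, also known as ZONAB, a transcription factor held at the junction by ZO-1, stood at 169.4, 168.8 and 187.3 CPM in Glis2+/+ and at 135.4, 144.3 and 159.7 CPM in Glis2-/- libraries, without overlap, a log2 fold change of -0.26 (standard error 0.10, unadjusted p of 0.0339). Both had an adjusted p of 0.906 in edgeR's quasi-likelihood test.

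The 3 most abundant of the 49 per length were Ybx3 (296.7 rescaled TPM), Amotl2 (212.3) and Cdc42 (187.7), the last a gene of the polarity complex, with log2 fold changes of -0.26, -0.09 and -0.03. Glis2+/+ replicate 1 and Glis2-/- replicate 3 were the 2 lowest libraries for 15 of the 49 (30.6%), among them the cingulin genes Cgn and Cgnl1, the tricellulin gene Marveld2 and the angulin genes Lsr and Ildr1. With the luminal minus basal level as a covariate, 11 of the 49 had an unadjusted p under 0.05 in edgeR, beside the 8.2% of all genes in that fit. Of these 11, 8 were higher (Cldn10, Cgn, Patj, Amotl1, Marveld3, F11r, Cxadr and Arhgef18) and 3 lower (Cldn19, Mpdz and Ybx3), and none passed both thresholds. Since this fit moves genes that rise with the covariate upward, the directions are not independent of the covariate.

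**Figure D5:**
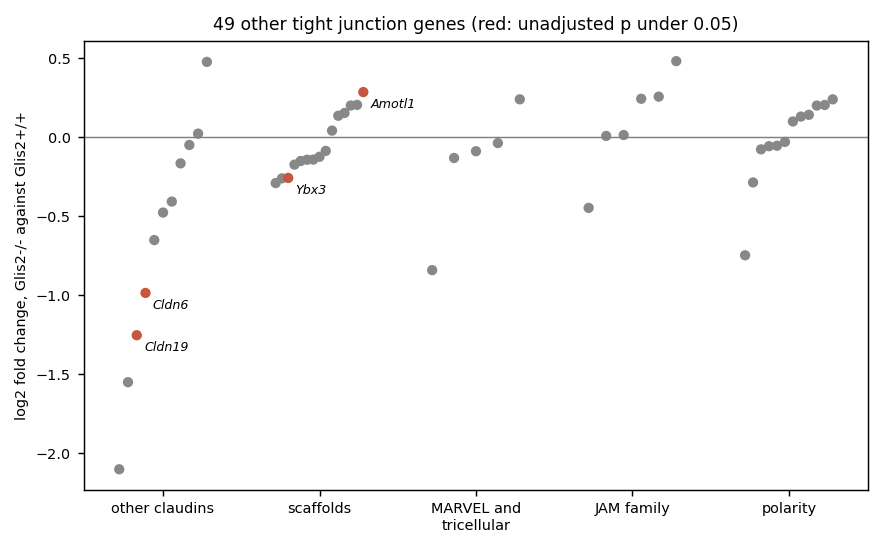
Log2 fold change of Glis2-/- against Glis2+/+ cells (vertical axis) for 49 other tight junction genes in 5 roles, 1 point a gene, sorted within a role, with the 4 genes at an unadjusted p under 0.05 in red and named. The 9 lower claudins reach down to -2.10, while the scaffolds lie between -0.29 and 0.29.

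Factors known to act on junction genes were listed as 12 activators and 6 repressors. None passed both thresholds, 8 of the activators were higher and 4 lower, and 3 of the repressors were higher and 3 lower. Grhl2, which activates Cldn4 and other junction genes, stood at 88.28, 151.5 and 106.5 CPM in Glis2+/+ and at 129.9, 125.8 and 98.39 CPM in Glis2-/- libraries, a log2 fold change of 0.03 (standard error 0.20). Elf5, the factor of luminal alveolar cells, stood at 31.7, 81.73 and 39.07 CPM in Glis2+/+ and at 54.23, 84.93 and 24.6 CPM in Glis2-/- libraries, a log2 fold change of 0.10 (standard error 0.46). Ovol1, whose product opposes the EMT program, lay between 9.269 and 13.47 CPM with a log2 fold change of 0.02 (standard error 0.21). Klf5, a zinc finger factor of epithelial progenitors, was the 1 factor at an unadjusted p under 0.05, beside 5.32% of all genes (0.0493, adjusted p = 0.906 from edgeR's quasi-likelihood test). It stood at 83.52, 127.8 and 100 CPM in Glis2+/+ and 69.69, 89.77 and 78.64 CPM in Glis2-/- libraries, a log2 fold change of -0.39 (standard error 0.17). For 10 of the 12 activators, Glis2+/+ replicate 1 and Glis2-/- replicate 3 were the 2 lowest libraries.

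Of the repressors, Snai2, which encodes Slug and marks basal cells, stood at 39.73, 24.85 and 33.2 CPM in Glis2+/+ and at 37.72, 29.65 and 47.04 CPM in Glis2-/- libraries, highest in Glis2+/+ replicate 1 and Glis2-/- replicate 3 within their genotypes. Its log2 fold change was 0.23 (standard error 0.22). Zeb1, which fibroblasts also express, stood at 41.22, 13.65 and 31.85 CPM in Glis2+/+ and at 22.9, 13.32 and 33.33 CPM in Glis2-/- libraries, lowest in replicate 2 of each genotype, as were the fibroblast markers at 2293 and 2585 CPM. Its log2 fold change was -0.32 (standard error 0.42). The largest fold among the 6 repressors was that of Zeb2, named here with Twist1 after their values were seen. Zeb2 stood at 179.9, 49.53 and 179.3 CPM in Glis2+/+ and at 56.55, 40.8 and 106.2 CPM in Glis2-/- libraries, a log2 fold change of -1.005 (standard error 0.49, unadjusted p of 0.0737). Like the fibroblast markers, at 7356, 2293 and 7727 CPM in Glis2+/+ and 4256, 2585 and 5884 CPM in Glis2-/- libraries, it was highest in Glis2+/+ replicates 1 and 3 and lowest in replicate 2 of each genotype, and their part in its difference was not tested. With the lineage covariate it was -1.41 (unadjusted p of 0.00812, adjusted p = 0.497 from edgeR's quasi-likelihood test). Twist1, at 1.47 to 7.752 CPM, came to -0.90 on the log2 scale, with a standard error of 0.58.

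The mean log2 CPM of the 9 genes was 4.896, 5.676 and 5.334 in Glis2+/+ and 5.409, 5.665 and 4.794 in Glis2-/- libraries. The 5 genes whose log2 CPM followed this mean most closely over the 6 libraries were Cracr2b, Rab3d, Mmp15, Coro2a and Arhgef38, with Pearson's r between 0.9936 and 0.9956. These are the highest of 21236 values over only 6 libraries, which differed in luminal marker level, and they are given as a description. The mean was lowest in Glis2+/+ replicate 1 and Glis2-/- replicate 3, and so was each of the 5, which follows from how they were picked. Coro2a, a coronin that binds actin, ran from 6.47 to 8.17 log2 CPM and Mmp15, a membrane-bound metalloproteinase, from 6.55 to 7.59 log2 CPM.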

How the data were processed

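RNA of FACS-sorted mammary epithelium, 3 Glis2+/+ and 3 Glis2-/- samples, gave 6 libraries from a total RNA kit for small inputs. The authors estimated counts with Salmon 1.2.1 (the version in the submitters' processing notes) on an mm10 transcriptome and collected them per gene with tximport. The deposited estimated counts are whole numbers without scaling for library size, and the deposited log2 values are TPM with an offset of 1. Of 54418 identifiers, 54166 were matched to a GRCm38 annotation. Total counts lay between 24996524 and 31393917 per library, which keeps counting error small except for the scarcest claudins. No library was a copy of another, since the lowest chi-square per degree of freedom over all pairs was 20.49.

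Counts were tested with edgeR 4.0.16 in R 4.3.3 (filterByExpr, TMM normalization, quasi-likelihood F-test) without a replicate block, with thresholds of 0.05 on the adjusted p and 0.58 on the absolute log2 fold change. No offset for the length assigned to a gene in each library was used in the fits on counts. Standard errors are the log2 fold change over the root of the F statistic. The common biological coefficient of variation was 37.4%. Because Gm23935, annotated as a microRNA gene, held 83.0% to 85.66% of the deposited TPM, levels between genes were compared after TPM was rescaled so that protein-coding genes make up the total. Alternatives were DESeq2 1.42.0 with and without apeglm 1.24.0, DESeq2 size factors, other filters, limma 3.58.1 on log2 TPM with offsets of 1 and 0.1, a replicate block, a covariate and leaving out libraries. The functions were tested on simulated data.

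The genes named are the 9 genes, of the other tight junction genes every claudin past the filter, those at an unadjusted p under 0.05 and the 3 most abundant per length, of the regulators Grhl2, Ovol1, Elf5, Snai2, Zeb1 and any at an unadjusted p under 0.05, and the 5 genes most like the mean of the 9. Zeb2 and Twist1 are named outside this rule, after their values were seen, and other genes as examples of a count. The genes and lists were chosen with earlier results of these data known, which include the levels of lineage markers, and no result is independent of that choice.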

Additional observations from a re-analysis of the deposited data

How the results depend on the processing

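Neither any of the 9 genes nor any of the 49 other tight junction genes that passed the filter was called in edgeR or in any of 17 alternatives. The edgeR count over all genes, 0 (with 1130 genes at an unadjusted p under 0.05), became 40 without a filter on low counts, 45 with DESeq2 and apeglm, 48 with DESeq2 without shrinkage, a setting added after seeing the data, and 1 with log2(TPM + 0.1) or with protein-coding TPM in limma. Shrinkage by apeglm brought the log2 fold change of each of the 9 genes to 0 at 4 decimals. Log2 TPM without rescaling shifted the median of all genes to -0.06 with an offset of 1 and to -0.14 with an offset of 0.1, and Cldn3 turned to -0.12 and -0.13 in these fits. With the lineage covariate Ocln turned to 0.24 and Tjp3 to 0.36. Leaving out 1 library at a time gave log2 fold changes from -0.28 to 0.38 for Cldn3, -0.0076 to 0.61 for Cldn4, -0.49 to 0.071 for Cldn7, -0.52 to 0.19 for Ocln and -0.41 to 0.36 for Tjp3, each of which changed direction, and from 0.07 to 0.48 for Cldn1, 0.02 to 0.51 for Cldn8, -0.52 to -0.43 for Cldn12 and -0.09 to -0.02 for Tjp1, none of which did. Cldn12 was at an unadjusted p under 0.05 in 13 of 17 alternatives, DESeq2 (0.0175) among them, but not without Glis2+/+ replicate 3 (0.0535) or in the 3 fits on TPM (0.276, 0.279 and 0.549), and its adjusted p lay between 0.581 and 1. These alternatives refit the same libraries, and the 13 for Cldn12 include DESeq2 with and without apeglm, which share the same p-value. The fits on TPM use the length assigned to a gene in each library, and those on counts do not. What causes the shifts between settings was not tested. The deviations of same-numbered libraries correlated at -0.022, 0.173 and 0.023, over 0.1 for replicate 2 alone, so the replicate numbers were not taken to pair the libraries. With a replicate block 0 of the 9 genes and 0 of all genes were called, 1287 genes had an unadjusted p under 0.05 and Cldn12 stood at -0.47 (unadjusted p of 0.0313). Depth limits Cldn8 most of the 9 genes, with 85 to 192 counts per library, and among the other claudins it limits Cldn20 (0 to 32), Cldn11 (5 to 172), Cldn2 (14 to 124), Cldn19 (18 to 173), Cldn34c1 (34 to 82), Cldn15 (48 to 164) and Cldn23 (51 to 150) more.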
